A study of Homo sapiens with 20 samples.

Results

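The genes described here are 39 human genes of the NRF2 system and of detoxification, taken by name: the transcription factor NRF2 (gene symbol NFE2L2), its inhibitor KEAP1, and enzymes, transporters and ferritin chains known as NRF2 targets or as partners of these targets. All 39 were among the 23368 genes of the count tables. Their levels were followed in Panc1, a human pancreatic ductal carcinoma line, and in A549, a human lung adenocarcinoma line. The 8 groups were siCont (control siRNA), TGFb, siKLF10 (siRNA against KLF10) and siKLF10+TGFb in each line, with 3 libraries a group in Panc1 (A, B and C) and 2 in A549 (A and B). The TGFβ dose was 5 ng/ml, for 72 h, in both lines. The labels do not say whether the group called TGFb also received the control siRNA. If it did not, comparisons with that group, and the interactions, also differ in transfection. Both lines are labelled as SV40-immortalized, although both are known as tumour-derived lines, and each stands for 1 tumour only. Whether the libraries of a group are separate cultures is not in the labels. The p-values therefore reflect only library-to-library spread, part or all of which may be technical. In bulk RNA, fewer cells that express a gene and less RNA per cell cannot be told apart.

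NRF2 is a stress-responsive activator that KEAP1 holds in the cytoplasm and hands to the proteasome. Oxidants and electrophiles modify KEAP1, NRF2 then accumulates, pairs with small MAF proteins and binds antioxidant response elements near genes for glutathione synthesis, thioredoxin recycling, NADPH production, quinone and carbonyl reduction, conjugation, export and iron storage. A549 is known to carry a mutant KEAP1 and a constitutively active NRF2, whereas TGFβ is known for driving epithelial cells towards a mesenchymal state. KLF10 is a zinc-finger transcription factor that TGFβ induces.

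To show the kind of sequence through which NRF2 is known to act, promoter windows were searched on both strands for TGACNNNGC, the core of the antioxidant response element. The windows held 300 bases, from 250 before to 50 after each annotated start (RefSeq, GRCh38.p14). The motif was found in 10 of the 30 members with a window (33.3%), against 16.1% of all 27305 genes with a window. By window it was found in 11 of their 39 (28.2%), against 13.3% of all 35116 windows. The sites below are of members whose responses are described later, with a single site shown for each. Further sites of TXNRD1, ME1 and KEAP1, and the site of UGT1A6, are left out. The sites shown are written 5′ to 3′ on the strand that carries the motif, with the motif in capitals.
PGD, chr1:10398853-10398881, minus strand: agcacctagaTGACATTGCcccggcgagg
GCLM, chr1:93909446-93909474, plus strand: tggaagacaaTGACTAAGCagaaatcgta
GSTA4, chr6:52995275-52995303, minus strand: ccgggaccgcTGACCTGGCgctttgtgcg
ME1, chr6:83431170-83431198, minus strand: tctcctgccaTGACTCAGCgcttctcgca
GSTP1, chr11:67583736-67583764, plus strand: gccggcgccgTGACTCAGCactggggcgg
TXNRD1, chr12:104215670-104215698, plus strand: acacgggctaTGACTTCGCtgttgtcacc
GPX2, chr14:64942849-64942877, plus strand: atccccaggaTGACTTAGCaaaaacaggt
KEAP1, chr19:10502784-10502812, plus strand: caggtcaccaTGACTAAGCagagccgggc
CBR1, chr21:36069855-36069883, minus strand: ccagctagccTGACTTTGCagaacccgca
The motif centre lay 197 bases before the start in PGD, 30 in GCLM, 118 in GPX2, 133 in ME1 and 62 in GSTP1. The ME1 and GSTP1 sites also hold TGANTCA, the letters of an AP-1 site, which overlap the motif. In A549 with TGFβ, transcripts of PGD, GCLM, GSTA4, ME1, TXNRD1, GPX2 and CBR1 fell and those of GSTP1 and KEAP1 did not pass the test, so both kinds of response stood beside these letters. A match of these letters is a description and not a bound site. HMOX1, GSR, PRDX1, PRDX6, AKR1B10, ALDH3A1, CBR3, ABCC3 and FTH1 had no window.

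The total of counts in genes lay between 11152625 and 15571367 in the Panc1 libraries and between 6846761 and 19070551 in the A549 libraries. Levels are given as CPM, counts scaled to a common library size, where a floor of 3 counts was 0.157 to 0.438 CPM. Reads in no annotated gene were 33.6 to 36.9% of the total in Panc1 and 57.6 to 60.1% in A549, so line and library batch cannot be told apart. KLF10 measured 142, 139 and 132 CPM in Panc1 siCont and 80.8, 81.1 and 77.9 CPM in siKLF10 (log2 −0.76 ± 0.0603, adjusted p = 2.58e-09), and fell by 0.94 under TGFβ. In A549 it measured 109 and 106 CPM in siCont and 99.8 and 106 CPM in siKLF10, where it did not pass the test (log2 −0.05 ± 0.0802, adjusted p = 0.743). Under TGFβ the A549 value was −0.29 ± 0.0779, with an adjusted p = 0.00775, lost without TGFb A (adjusted p = 0.0624) or TGFb B (adjusted p = 0.057). These A549 groups are therefore called the libraries labelled siKLF10. Markers of the named tissues were near 0, with 5 lung markers summing to at most 1.02 CPM in A549 and 5 pancreas markers to at most 0.259 CPM in Panc1. A list of 7 transcripts known from A549, fibrinogens among them, summed to 2731 to 2890 CPM in A549 siCont and 19.2 to 21.6 CPM in Panc1 siCont. Basal epithelial transcripts were found in both lines, with a count for 11 of 12 markers in each Panc1 group and in A549 siCont. In Panc1 siCont KRT6B had no count in any library and KRT14 none in B or C. The sums were 242 CPM in Panc1 siCont A and 147 and 153 CPM in B and C, against 72.0 to 112 CPM in the other 9 Panc1 libraries. In A549 they were 141 to 145 CPM in siCont and 261 to 268 CPM in siKLF10+TGFb.

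A549 held far more of these transcripts than Panc1 before any treatment. In siCont, 35 of 39 members were higher in A549 (background: 42.9% of 15058 genes were called higher) and 4 were lower (background 39%). The median log2 difference over the members was 2.84, beside 0.07 over all genes tested, and 33 members were called at least 2-fold higher (background 26.9%). Summed, the members took 4.84 ± 0.0345% of all gene counts in A549 siCont (n = 2) and 0.360 ± 0.00303% in Panc1 siCont (n = 3). The panel of levels by line shows how the 2 sets of libraries separate for nearly every enzyme and draw close for NFE2L2 and KEAP1.

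**Figure D1:**
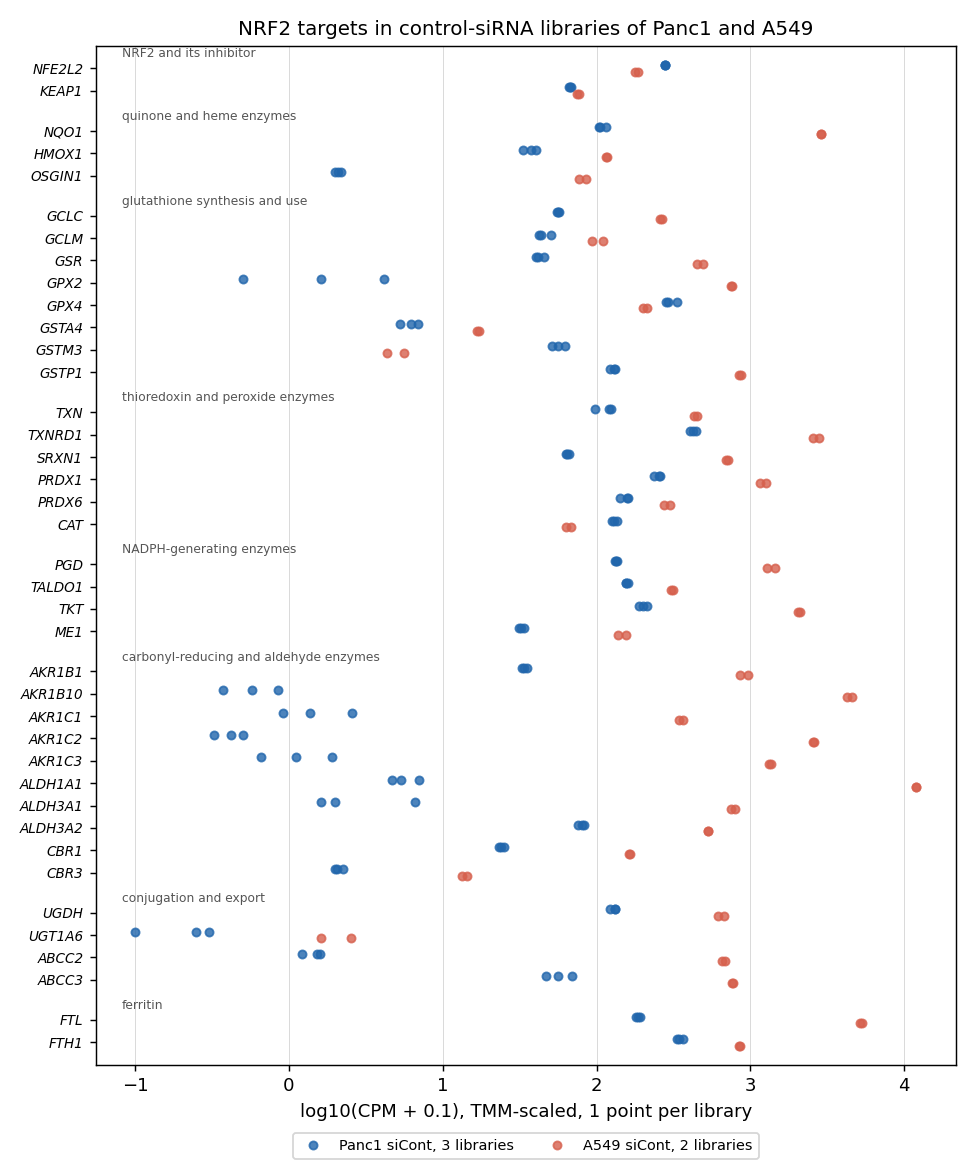
Level of each of the 39 members in the siCont libraries, as log10 of CPM plus 0.1, with 1 point per library and members grouped by role. The Panc1 points (3 libraries) lie left of the A549 points (2 libraries) for 35 members and right of them for NFE2L2, GPX4, GSTM3 and CAT.

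NFE2L2 itself was not one of the genes with more transcript in A549. In library order it measured 279, 277 and 279 CPM in Panc1 and 177 and 186 CPM in A549, with no overlap (log2 −0.55 ± 0.0691, adjusted p = 1.11e-08). KEAP1 measured 66.7, 68.1 and 65.98 CPM in Panc1 and 77.3 and 74.8 CPM in A549, a difference that passed the test (log2 0.26 ± 0.0814, adjusted p = 0.00476) but not without a filter on low counts (adjusted p = 0.0647). The 2 regulators thus differed by less than 1.5-fold between lines, while 33 of the enzymes, carriers and ferritin chains were at least 2-fold higher in A549.

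The carbonyl-reducing and aldehyde enzymes carried the largest gaps: all 10 were higher in A549, with a median log2 difference of 7.94. AKR1B10, an aldo-keto reductase of lipid aldehydes, measured 0.748, 0.478 and 0.271 CPM in Panc1 siCont, near the floor, and 4569.9 and 4253 CPM in A549 siCont (13.17 ± 0.202). AKR1C2, a steroid-reducing aldo-keto reductase, measured 0.224, 0.319 and 0.406 CPM in Panc1 and 2563 and 2583 CPM in A549 (13.002 ± 0.16). ALDH1A1, which makes retinoic acid from retinaldehyde, measured 6.96, 5.26 and 4.60 CPM in Panc1 and 11858 and 12018 CPM in A549 (11.13 ± 0.122), which made it the member with the most reads in A549. AKR1C3 and AKR1C1, close relatives of AKR1C2, differed by 10.28 ± 0.161 and 7.95 ± 0.163. These 3 AKR1C genes share sequence: 48.1% of the 50-base windows of AKR1C2, 27.0% of those of AKR1C1 and 9.545% of those of AKR1C3 also occur in other genes in GENCODE v29, so the split between them is uncertain. ALDH3A1, which oxidises aldehydes, differed by 7.94 ± 0.247 and by 8.87 without Panc1 siCont A, the Panc1 library with the highest basal sum.

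Outside this group, ABCC2, an exporter of conjugates, differed by 9.01 ± 0.13, and GPX2, a glutathione peroxidase, by 8.67 ± 0.365 (9.74 without Panc1 siCont A). OSGIN1, an oxidative-stress-induced growth inhibitor, differed by 5.42 ± 0.151. The ferritin light chain FTL measured 179, 191 and 186 CPM in Panc1 and 5296 and 5149.6 CPM in A549 (4.89 ± 0.132). NQO1, which reduces quinones and is a standard readout of NRF2, measured 115, 105 and 104 CPM in Panc1 and 2868 and 2897 CPM in A549, 28.1-fold higher (log2 4.81 ± 0.0802, adjusted p = 4.35e-32). TXNRD1, thioredoxin reductase, was 6.64-fold higher, HMOX1, heme oxygenase 1, 3.28-fold, and GCLM, the modifier subunit of the enzyme that starts glutathione synthesis, 2.37-fold. The 3 enzymes lower in A549 were GSTM3, a glutathione transferase (62.1, 56.3 and 51.2 against 5.47 and 4.24 CPM, −3.45 ± 0.147), catalase (CAT, −0.92 ± 0.08) and GPX4, the lipid hydroperoxide peroxidase (−0.48 ± 0.0932).

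Ranked within a line per kilobase of exon, the order of the members differed as well. In Panc1 siCont GPX4 was highest at 246 ± 22.6 CPM per kb, ahead of FTH1 at 216 ± 10.2, FTL at 211 ± 6.64 and PRDX1 at 199.5 ± 9.46. There GPX4 stood clear of FTH1, while FTH1 overlapped FTL in range and FTL overlapped PRDX1. In A549 siCont FTL (5949 ± 118 CPM per kb) and ALDH1A1 (5663 ± 53.8) led, followed by AKR1B10 (2774 ± 141) and then PRDX1 (963 ± 59.9), NQO1 (923 ± 6.77) and GSTP1 (892 ± 20.4), of which PRDX1 and NQO1 overlapped in range. Lowest in both lines was UGT1A6, a glucuronosyltransferase, with counts of 2, 0 and 3 in Panc1 siCont and 1.51 and 2.42 CPM in A549 siCont, and 62.05% of its 50-base windows are shared with other UGT1A genes.

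TGFβ lowered most of the set in A549. Of 39 members 31 fell (background: 23.5% of 14124 genes were called lower) and 1 rose (background 24.2%), and 22 fell at least 2-fold (background 6.84%). The median log2 fold change of the members was −1.09, beside −0.01 for all genes tested. Their share of all gene counts went from 4.84 ± 0.0345% in siCont to 2.48 ± 0.0557% in TGFb (n = 2 each). By role, 1 of 2 regulators, 2 of 3 quinone and heme enzymes and 6 of 8 glutathione genes fell. So did 5 of 6 thioredoxin and peroxide genes and 4 of 4 in the group of pentose phosphate enzymes and malic enzyme. Of the rest, 7 of 10 carbonyl and aldehyde enzymes, 4 of 4 genes of conjugation and export and 2 of 2 ferritin chains fell. Other transcripts moved in the same libraries: the 7 A549 transcripts summed to 823 to 828 CPM under TGFβ, 5 fibroblast markers went from 0.953 to 1.58 CPM up to 9.74 to 11.995 CPM, the 12 basal markers from 141 to 145 up to 173 to 189 CPM, and 5 blood markers (2 and 3 of them without a count) from 5.26 to 5.37 down to 1.31 to 1.62 CPM. Their part in the result was not tested.

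**Figure D2:**
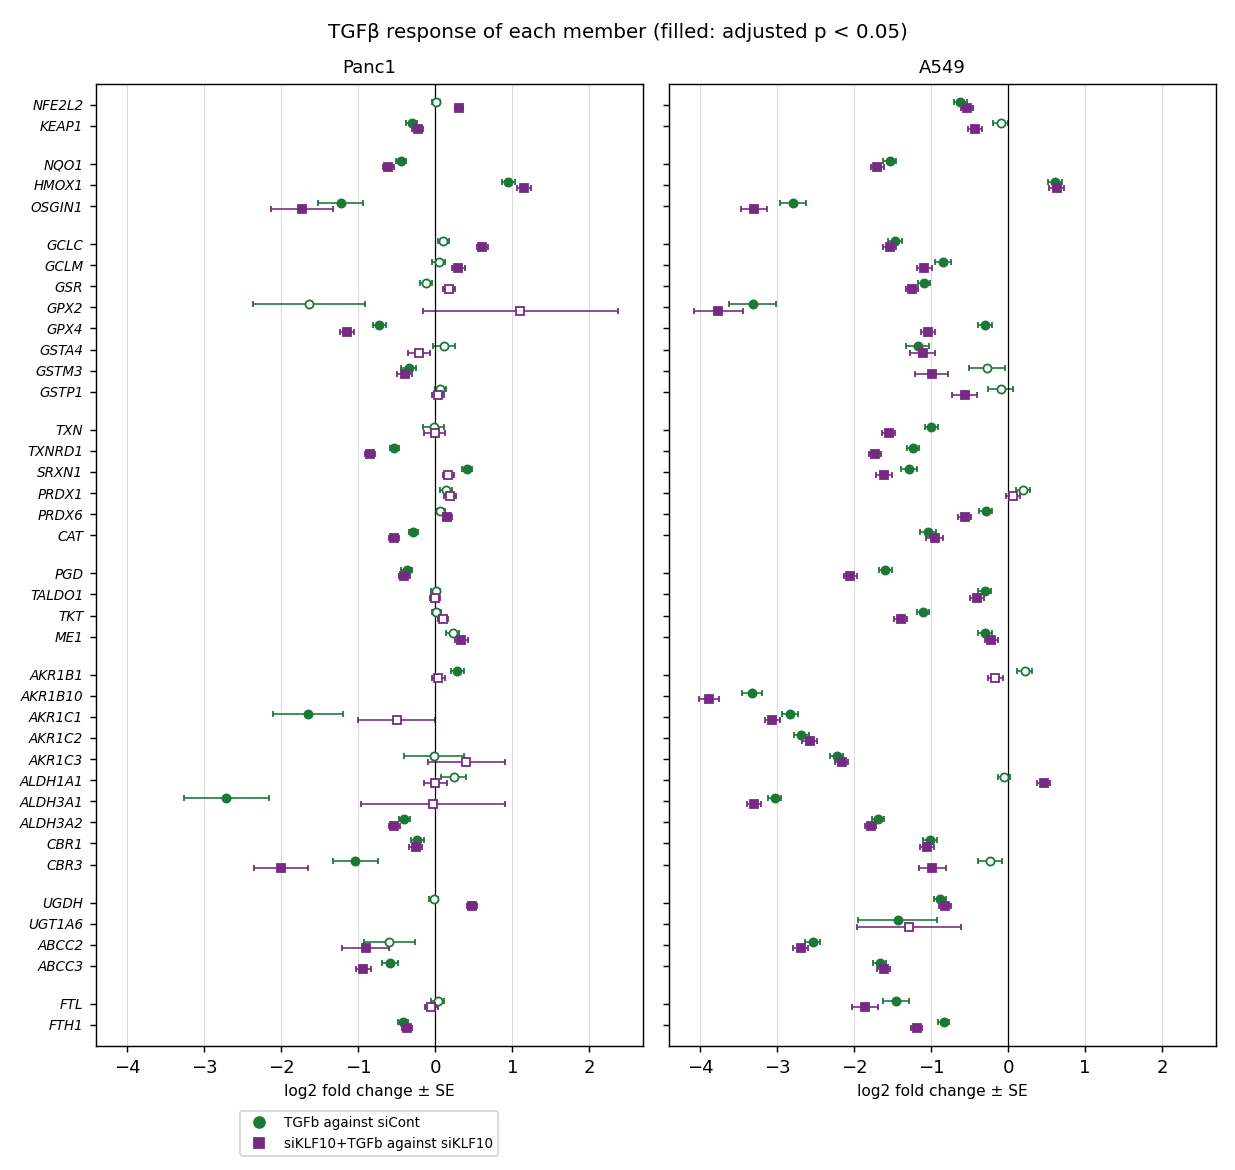
Log2 fold change with TGFβ (± SE) of each member in Panc1 (left) and A549 (right), on a shared axis. Circles are TGFb against siCont and squares are siKLF10+TGFb against siKLF10. Filled symbols passed the test, and in A549 both symbols of most members lie left of 0 while in Panc1 most lie near it.

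Among the regulators, NFE2L2 fell from 177 and 186 CPM in siCont to 122 and 116 CPM in TGFb (log2 −0.62 ± 0.0813, adjusted p = 1.56e-06). KEAP1 measured 77.3 and 74.8 CPM in siCont and 73.5 and 69.5 CPM in TGFb and did not pass the test (log2 −0.10 ± 0.0912, adjusted p = 0.401). NQO1 fell 2.90-fold, from 2868 and 2897 to 1028 and 971 CPM (log2 −1.54 ± 0.0843, adjusted p = 1.07e-12). For both genes that fell, no TGFb library reached a siCont library. OSGIN1 went from 85.3 and 77.2 CPM to 10.2 and 14.02 CPM (log2 −2.79 ± 0.169, adjusted p = 4.43e-09). HMOX1, which breaks heme down, is an NRF2 target as well as a target of BACH1. It was the 1 member called as a rise in the default fit of all A549 groups, from 115 and 117 to 177 and 179 CPM (log2 0.61 ± 0.0935, adjusted p = 1.36e-05). AKR1B1 and PRDX1 were called as rises in some other settings, as given below. The quinone and heme enzymes thus split in direction.

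The glutathione genes fell by very unequal amounts. GPX2 fell from 759.7 and 752 to 77.8 and 74.97 CPM, 9.96-fold (log2 −3.32 ± 0.309, adjusted p = 0.000866). GCLC, the catalytic subunit that sets the rate of glutathione synthesis, fell from 268 and 259 to 102 and 89.7 CPM (log2 −1.47 ± 0.0863, adjusted p = 3.62e-12). Its partner GCLM fell from 111 and 93.95 to 54.5 and 60.8 CPM (log2 −0.84 ± 0.0976, adjusted p = 2.46e-07). Both subunits thus fell, GCLC by the larger log2 amount. Glutathione reductase (GSR), which restores reduced glutathione, went from 495 and 450.5 to 226 and 221 CPM (log2 −1.09 ± 0.0775, adjusted p = 9.17e-11). GSTA4, a transferase for the lipid aldehyde hydroxynonenal, fell from 16.7 and 17.1 to 7.86 and 7.08 CPM (log2 −1.17 ± 0.154, adjusted p = 1.6e-06). GPX4 fell least, by 0.30, a call lost without siCont A or TGFb A (adjusted p = 0.0997 to 0.123). The transferases GSTP1 (−0.09 ± 0.161) and GSTM3 (−0.28 ± 0.237) did not pass the test.

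In the thioredoxin branch, thioredoxin itself (TXN) fell from 449 and 431 to 209.9 and 235 CPM (log2 −0.996 ± 0.0815, adjusted p = 1e-09). Its reductase TXNRD1 fell from 2809.8 and 2560.4 to 1167 and 1138 CPM (log2 −1.23 ± 0.0801, adjusted p = 2.09e-11). SRXN1, which repairs over-oxidised peroxiredoxins, fell from 715 and 693 to 296 and 285 CPM (log2 −1.29 ± 0.102, adjusted p = 1.43e-08). In GENCODE v29, 84.7% of the 50-base windows of SRXN1 also lie in an overlapping annotation at its locus, so its count is uncertain. Catalase, which splits hydrogen peroxide, fell from 62.9 and 68.5 to 31.05 and 33.4 CPM (log2 −1.04 ± 0.105, adjusted p = 2.71e-08). The peroxiredoxins, which reduce peroxides, responded less: PRDX6 fell by 0.29, a call lost without siCont A or TGFb B (adjusted p = 0.087 to 0.14), and PRDX1 did not pass the test (0.19 ± 0.0917, adjusted p = 0.0888), though it did in a fit of the 2 groups alone (adjusted p = 0.00114).

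All 4 genes in the group of pentose phosphate enzymes and malic enzyme fell. PGD, a dehydrogenase of the pentose phosphate pathway, went from 1439 and 1292 to 479.9 and 432 CPM (log2 −1.59 ± 0.0842, adjusted p = 5.95e-13). Transketolase (TKT), of the same pathway, fell from 2112 and 2029.9 to 996 and 948 CPM (log2 −1.10 ± 0.0796, adjusted p = 1.27e-10). Transaldolase (TALDO1) fell by 0.30, a call lost without siCont A or TGFb A (adjusted p = 0.0559 to 0.0916). Malic enzyme (ME1) fell by 0.30, a call lost without siCont A or TGFb B (adjusted p = 0.088 to 0.16), so the group was strong in PGD and TKT and weak in these 2 enzymes.

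Of the carbonyl and aldehyde enzymes, the aldo-keto reductases AKR1B10, AKR1C1, AKR1C2 and AKR1C3 and the dehydrogenase ALDH3A1 fell most. AKR1B10 fell 10.01-fold, from 4569.9 and 4253 to 485 and 402 CPM (log2 −3.32 ± 0.126, adjusted p = 8.76e-11). Other genes, its relative AKR1B15 first among them, share 17.4% of its 50-base windows, so its count is uncertain in part. ALDH3A1 fell from 798 and 747 to 93.5 and 97.4 CPM (log2 −3.03 ± 0.0809, adjusted p = 4.89e-18). AKR1C1, AKR1C2 and AKR1C3 fell by log2 amounts of −2.83 ± 0.102, −2.68 ± 0.0955 and −2.22 ± 0.0887. In CPM, AKR1C1 went from 368 and 342 to 52.9 and 46.9, AKR1C2 from 2563 and 2583 to 421 and 386 and AKR1C3 from 1369 and 1324 to 300.3 and 279.7. ALDH3A2, which oxidises fatty aldehydes, fell from 534 and 529 to 169 and 162 CPM (log2 −1.69 ± 0.0774, adjusted p = 5e-14). The carbonyl reductase CBR1 fell from 164 and 162 to 76.1 and 87.2 CPM (log2 −1.01 ± 0.09, adjusted p = 3.92e-09). ALDH1A1 stayed at 11952 and 11241 CPM, against 11858 and 12018 CPM in siCont, with groups that overlapped (log2 −0.05 ± 0.0799, adjusted p = 0.624). AKR1B1, the aldose reductase, and CBR3 did not pass the test either (0.21 ± 0.0947 and −0.24 ± 0.157). AKR1B1 passed it as a rise in a fit of the 2 groups alone (adjusted p = 0.000471) and with no filter on low counts (adjusted p = 0.0315).

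Conjugation and export fell as a whole group. ABCC2 went from 649.7 and 687 to 123 and 109 CPM (log2 −2.53 ± 0.0973, adjusted p = 1.35e-14). ABCC3, another exporter of conjugates, fell from 758 and 769 to 247 and 237 CPM (log2 −1.67 ± 0.0845, adjusted p = 2.88e-13). UGDH, which makes the UDP-glucuronate that glucuronidation uses, fell from 669.7 and 616 to 359 and 345 CPM (log2 −0.88 ± 0.0793, adjusted p = 5.01e-09). UGT1A6 fell from 1.51 and 2.42 to 0.907 and 0.443 CPM (log2 −1.43 ± 0.508, adjusted p = 0.0244), a call on few reads that was lost without siCont B, or TGFb A or B and with DESeq2 (adjusted p = 0.0588 to 0.192), with a log2 fold change of −2.11 without TGFb A. Of the iron-storing ferritin chains, FTL fell from 5296 and 5149.6 to 1971 and 1871 CPM (log2 −1.45 ± 0.168, adjusted p = 0.000207). FTH1 fell from 862 and 838 to 469.8 and 491 CPM (log2 −0.83 ± 0.0731, adjusted p = 3.19e-09). Ferritin has many processed copies, and 18.3% of the 50-base windows of FTL and 25.0% of those of FTH1 occur in other genes, so both counts are uncertain.

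The same response was measured again in A549 libraries labelled siKLF10, which share no library with the comparison above. There 34 of 39 members fell with TGFβ (background 26.8% of 14124 genes) and 2 rose (background 26.5%), 24 fell at least 2-fold (background 7.81%), and the median log2 fold change was −1.24. In all, 30 members fell in both arms, which is 96.8% of the 31 and 88.2% of the 34. HMOX1 rose in both, and no member went opposite ways. As most of the 39 fell in each arm, a large overlap follows, and the overlap over all genes was not counted. AKR1B10 went from 2282 and 2027 CPM in siKLF10 to 169 and 132 CPM in siKLF10+TGFb (log2 −3.88 ± 0.131, adjusted p = 1.97e-11). GPX2 went from 505 and 446 to 48.97 and 25.3 CPM (log2 −3.76 ± 0.32, adjusted p = 0.000531). OSGIN1 fell from 70.996 and 71.8 to 9.73 and 5.94 CPM (log2 −3.30 ± 0.171, adjusted p = 6.33e-10). These 3 were among the largest falls in the first arm as well. NQO1 fell from 2499 and 2271 to 811 and 695 CPM (log2 −1.70 ± 0.0847, adjusted p = 1.86e-13). PGD fell from 2137 and 1989.9 to 537 and 486 CPM (log2 −2.05 ± 0.0849, adjusted p = 7.52e-15). TXNRD1 fell from 3775 and 3485 to 1177 and 1071 CPM (log2 −1.73 ± 0.081, adjusted p = 6.55e-14). ALDH3A1, AKR1C1, ABCC2, AKR1C2 and AKR1C3 fell too, with log2 fold changes of −3.30 ± 0.0847, −3.06 ± 0.101, −2.69 ± 0.0973, −2.58 ± 0.0948 and −2.16 ± 0.0881. NFE2L2 fell by 0.53 and GCLM by 1.09. The 7 A549 transcripts summed to 1662 to 1694 CPM in siKLF10 and 637 to 734 CPM in siKLF10+TGFb, the 12 basal markers to 178 to 183 and 261 to 268 CPM, and the 5 fibroblast markers to 1.96 to 3.27 and 14.98 to 15.1 CPM. Their part in the result was not tested.

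Members called in this arm and not in the first were KEAP1 (log2 −0.42 ± 0.0901, adjusted p = 0.000442), GSTM3 (log2 −0.99 ± 0.22, adjusted p = 0.000643), CBR3 (log2 −0.98 ± 0.173, adjusted p = 5.87e-05), GSTP1 (log2 −0.57 ± 0.162, adjusted p = 0.0205, lost without siKLF10 A or B (adjusted p = 0.0516 to 0.106)), and ALDH1A1, which rose from 8982 and 8794 to 11819 and 13306 CPM (log2 0.46 ± 0.0801, adjusted p = 4.82e-05). Of these 5, the difference between arms passed its own test for ALDH1A1, as given with the interactions below, and did not for KEAP1, GSTM3, CBR3 or GSTP1. HMOX1 rose from 126 and 111 to 208 and 170.01 CPM (0.63 ± 0.0933).

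**Figure D3:**
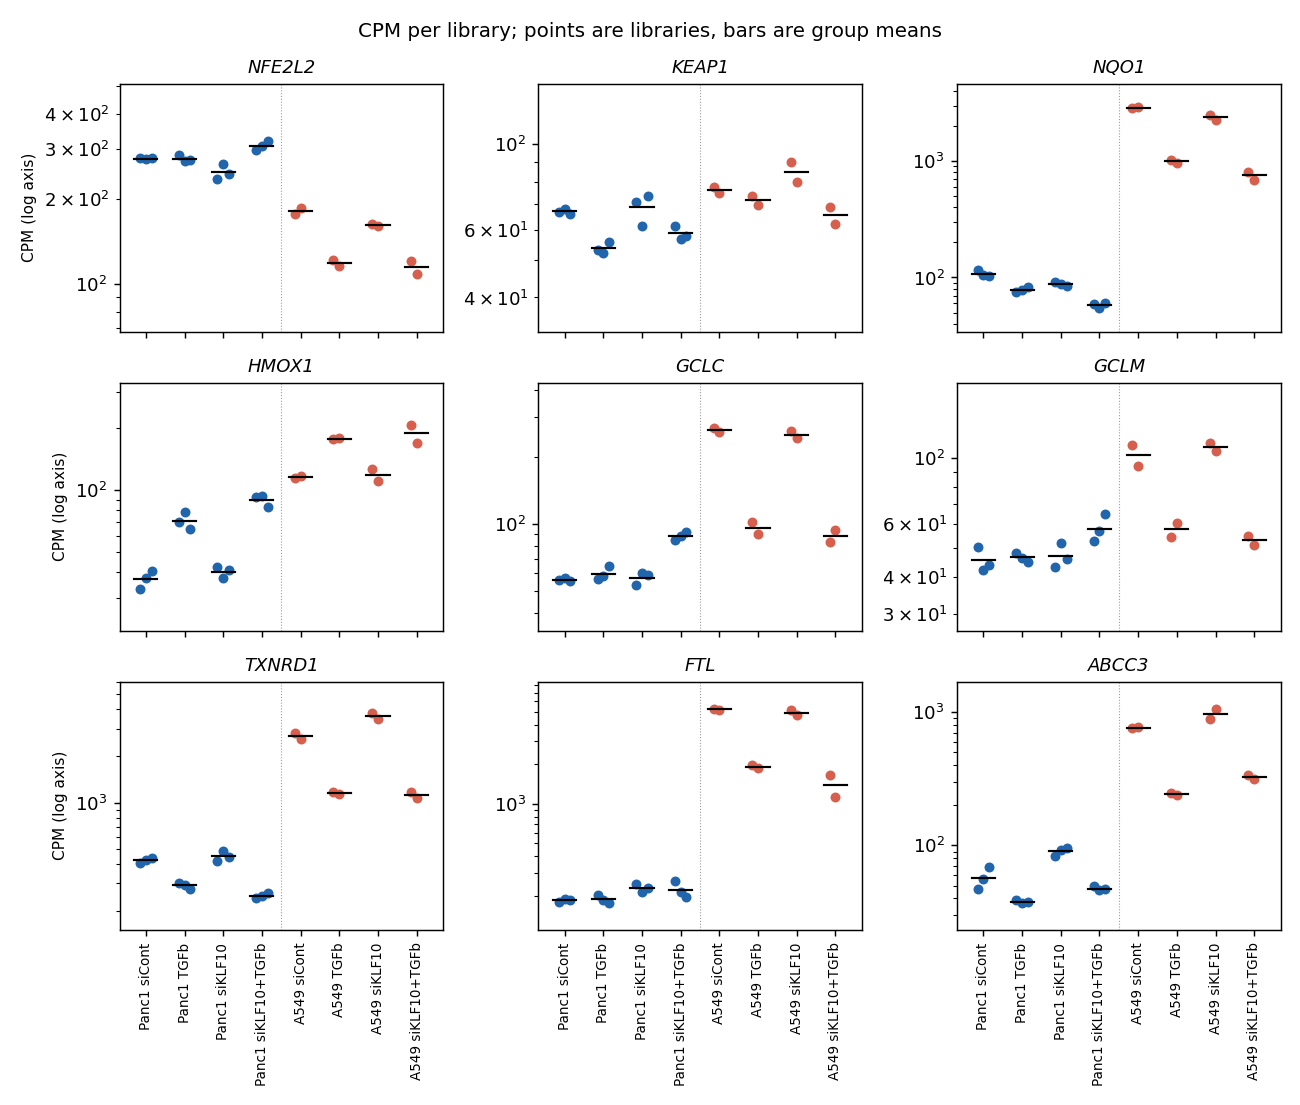
CPM of 9 members in each of the 20 libraries (points) with group means (bars), on log axes, Panc1 left of the dotted line and A549 right of it. NQO1, GCLC, TXNRD1, FTL and ABCC3 drop from siCont to TGFb and from siKLF10 to siKLF10+TGFb in A549, and HMOX1 goes up in both lines.

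Panc1 gave a narrower response to TGFβ. Of 36 members tested there (AKR1B10, AKR1C2 and UGT1A6 were too low), 15 fell (background: 15.1% of 13218 genes) and 3 rose (background 14%), and 4 fell at least 2-fold (background 3.15%). The median log2 fold change was −0.07, and the members' share of all gene counts went from 0.360 ± 0.00303% to 0.316 ± 0.00126% (n = 3 each). The share of members that fell, 15 of 36, stood above that background and the share that rose was below it. The 5 fibroblast markers summed to 11.4 to 13.3 CPM in siCont and 26.5 to 30.5 CPM in TGFb, and their part in the result was not tested.

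NFE2L2 measured 279, 277 and 279 CPM in siCont and 286, 273 and 276 CPM in TGFb, with overlapping groups (log2 0.0081 ± 0.0558, adjusted p = 0.932), and its sign turned with plain library sizes (−0.019) and without TGFb A (−0.0056). KEAP1 fell from 66.7, 68.1 and 65.98 to 53.2, 52.1 and 55.9 CPM (log2 −0.31 ± 0.0721, adjusted p = 0.0022). NQO1 fell from 115, 105 and 104 to 75.7, 77.5 and 82.5 CPM (log2 −0.45 ± 0.0665, adjusted p = 1.39e-05). TXNRD1 fell from 406, 427 and 441 to 304, 295 and 276 CPM (log2 −0.53 ± 0.0617, adjusted p = 4.14e-07). GPX4, whose enzyme protects membrane lipids, fell from 335, 289.7 and 284 to 178, 173 and 194 CPM (log2 −0.73 ± 0.0867, adjusted p = 1.56e-06). In each of these 4 falls the highest TGFb library lay below the lowest siCont library. OSGIN1 fell from 2.09, 1.99 and 1.89 to 0.886, 0.877 and 0.757 CPM (log2 −1.23 ± 0.292, adjusted p = 0.00238). CBR3 fell from 1.94, 2.15 and 1.89 to 1.11, 0.877 and 0.895 CPM (log2 −1.04 ± 0.286, adjusted p = 0.00803). ABCC3 fell from 46.7, 55.7 and 68.7 to 38.7, 37.2 and 37.4 CPM (log2 −0.59 ± 0.0985, adjusted p = 7.69e-05). FTH1 (−0.42), ALDH3A2 (−0.40), PGD (−0.37), GSTM3 (−0.35), CAT (−0.29) and CBR1 (−0.24) fell by under 1.5-fold. The GSTM3 call was lost without siCont A or TGFb A (adjusted p = 0.0551 to 0.0569), and the CBR1 call without siCont A, B or C, TGFb A or B, siKLF10 A or C, or siKLF10+TGFb B or C and with DESeq2, with no filter on low counts and in a fit of the 2 groups alone (adjusted p = 0.0506 to 0.199).

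HMOX1 showed the largest rise, from 33.1, 37.5 and 40.6 CPM to 70.3, 78.2 and 65.05 CPM (log2 0.95 ± 0.088, adjusted p = 1.34e-08). SRXN1 rose from 62.98, 65.7 and 64.6 to 81.6, 85.5 and 88.2 CPM (0.41 ± 0.0692) and AKR1B1 by 0.28, a call lost without siCont A, or TGFb A or B (adjusted p = 0.0503 to 0.107). GCLC (0.10 ± 0.0696) and GCLM (0.04 ± 0.0887) did not pass the test. The value of GCLM turned to −0.0058 without siCont B.

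For some of the larger Panc1 values, siCont A stood out, as it did for the basal epithelial transcripts. ALDH3A1 had counts of 87, 19 and 28 in the siCont libraries in order and 6, 5 and 9 in TGFb, or 6.51, 1.51 and 1.89 CPM and 0.443, 0.399 and 0.62 CPM (log2 −2.71 ± 0.551, adjusted p = 0.00143), and without siCont A its log2 fold change was −1.78. AKR1C1 measured 2.47, 1.27 and 0.812 CPM in siCont and 0.738, 0.239 and 0.413 CPM in TGFb (log2 −1.66 ± 0.453, adjusted p = 0.00743), with −1.11 and adjusted p = 0.0908 without siCont A. GPX2 measured 4.04, 1.51 and 0.406 CPM in siCont and 0.664, 0.797 and 0.413 CPM in TGFb and did not pass the test (log2 −1.64 ± 0.73, adjusted p = 0.119). For all 3, siCont A was the highest of the 12 Panc1 libraries, as it was for the basal marker sum at 242 CPM. Between siCont B and C (basal sums of 147 and 153 CPM) ALDH3A1 was higher in C, while AKR1C1 and GPX2 were higher in B. The part of the basal transcripts in these values was not tested.

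After siKLF10, TGFβ lowered 14 of 36 members in Panc1 (background 22.3% of 13218 genes) and raised 7 (background 22.6%), with a median of −0.02. With plain library sizes the median over all genes shifted to −0.11, the share of all calls that were higher went from 50.4 to 32.8%, and 14 members fell and 5 rose. The 5 fibroblast markers summed to 12.7 to 13.1 CPM in siKLF10 and 26.3 to 28.6 CPM in siKLF10+TGFb, and their part in these counts was not tested. Between the arms, which share no library, 13 members fell in both, 86.7% of the 15 and 92.9% of the 14, and HMOX1 alone rose in both. Here too the overlap over all genes was not counted. HMOX1 rose from 42.1, 37.6 and 40.9 to 92.9, 93.7 and 82.5 CPM (log2 1.15 ± 0.0873, adjusted p = 2.82e-10). GPX4 fell from 248, 213 and 244 to 124, 96.6 and 99.2 CPM (log2 −1.15 ± 0.0891, adjusted p = 2.21e-09). TXNRD1 fell from 417, 485 and 443 to 241, 251 and 259 CPM (log2 −0.85 ± 0.0622, adjusted p = 1.63e-10). NQO1 fell from 91.3, 88.6 and 84.7 to 59.1, 54.7 and 60.3 CPM (log2 −0.61 ± 0.0686, adjusted p = 1.69e-07). ABCC3 fell from 82.8, 92.4 and 96.002 to 49.3, 46.02 and 47.1 CPM (log2 −0.94 ± 0.0954, adjusted p = 6.23e-08), so its groups stood well apart. CBR3 fell from 1.84, 2.12 and 1.37 to 0.399, 0.647 and 0.259 CPM (log2 −2.01 ± 0.352, adjusted p = 6.87e-05). OSGIN1 fell from 1.001, 1.44 and 0.914 to 0.465, 0.162 and 0.346 CPM (log2 −1.73 ± 0.405, adjusted p = 0.00137), so both were near the floor of 3 counts under TGFβ. ABCC2 fell from 1.42, 1.74 and 2.29 to 1.06, 1.21 and 0.605 CPM (log2 −0.91 ± 0.31, adjusted p = 0.0208), a call lost without siKLF10 C or siKLF10+TGFb C and with DESeq2 (adjusted p = 0.0751 to 0.116).

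In this arm GCLC rose from 53.1, 60.2 and 59.2 to 84.97, 88.2 and 91.6 CPM (log2 0.61 ± 0.0687, adjusted p = 1.73e-07), UGDH by 0.48 ± 0.0588, ME1 by 0.34 ± 0.0887, NFE2L2 by 0.31 ± 0.056, GCLM by 0.30 ± 0.088 and PRDX6 by 0.15 ± 0.0596. These 6 fell in A549 with TGFβ after siKLF10, so they were called in opposite directions in the 2 lines. The GCLM call was lost without siKLF10+TGFb C and with plain library sizes (adjusted p = 0.0624 to 0.0715) and the PRDX6 call without TGFb A or B, siKLF10 A or C, or siKLF10+TGFb B or C and with no filter on low counts, with plain library sizes and in a fit of the 2 groups alone (adjusted p = 0.0534 to 0.45). In A549 the ME1 call of this arm (−0.22 ± 0.0831) was lost without TGFb A or B, siKLF10 A, or siKLF10+TGFb A and with DESeq2, with no filter on low counts and in a fit of the 2 groups alone (adjusted p = 0.05 to 0.29).

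The difference between the lines was tested in 1 model over all 20 libraries. The TGFβ response (TGFb against siCont) was lower in A549 than in Panc1 for 27 of 39 members (background 17.1% of 15058 genes) and higher for 1 (background 13.8%), with a median difference of −0.94 in log2, beside −0.07 over all genes. In the 2 separate fits, 12 members fell in both lines, 80.0% of the 15 in Panc1 and 38.7% of the 31 in A549. Of all 39 members 31 fell in A549, a share near the 12 of 15, and the overlap over all genes was not counted. The 12 were NQO1, OSGIN1, GPX4, TXNRD1, CAT, PGD, AKR1C1, ALDH3A1, ALDH3A2, CBR1, ABCC3 and FTH1. SRXN1 was called in opposite directions (0.41 in Panc1 and −1.29 in A549), and its difference was −1.78 ± 0.119 (adjusted p = 6.26e-14). GCLC differed by −1.65 ± 0.117, GCLM by −0.97 ± 0.139, GSR by −1.05 ± 0.109, NQO1 by −1.17 ± 0.107, TXNRD1 by −0.78 ± 0.104 and NFE2L2 by −0.71 ± 0.0983. The largest called differences were those of AKR1B10 (log2 −3.48 ± 0.622, adjusted p = 0.000162) and AKR1C3 (log2 −2.29 ± 0.373, adjusted p = 2.45e-05), which stood near the floor in Panc1. The AKR1C2 difference (−1.92 ± 0.719) was −0.75 without Panc1 TGFb B, and its call was lost without Panc1 siCont A or B, Panc1 TGFb A or B, A549 siCont A or B, or A549 TGFb B and with no filter on low counts (adjusted p = 0.0535 to 0.761). HMOX1 rose in both lines, and its smaller log2 rise in A549 (−0.42 ± 0.134, adjusted p = 0.0156) was lost without Panc1 siCont A, Panc1 TGFb B, A549 siCont B or A549 TGFb A and with no filter on low counts (adjusted p = 0.0522 to 0.0615). GPX4, the 1 member with a difference the other way (0.35 ± 0.132, adjusted p = 0.0435), lost that call without Panc1 siCont A, Panc1 TGFb A or B, Panc1 siKLF10 C, A549 siCont A or B, or A549 TGFb A or B (adjusted p = 0.0522 to 0.163). KEAP1 (0.13 ± 0.118), AKR1C1 (−1.26 ± 0.517) and ALDH3A1 (−0.40 ± 0.795) were among the 11 members whose difference did not pass the test.

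Members with a larger excess in A549 over Panc1 also tended to have larger falls with TGFβ in A549. To avoid a shared library, the level difference between siCont groups was set beside the A549 response after siKLF10. The 12 members at least 16-fold higher in A549 had a median response of −2.63 (from −3.88 to 0.46), the 16 members 4 to 16-fold higher one of −1.34, and the 11 others one of −0.95. Over the 39 members Pearson's r was −0.587 and Spearman's rho −0.621, as a description across genes that share these libraries. ALDH1A1 and AKR1B1 stood outside this pattern, with level differences of 11.13 and 4.82 and responses of 0.46 and −0.17.

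**Figure D4:**
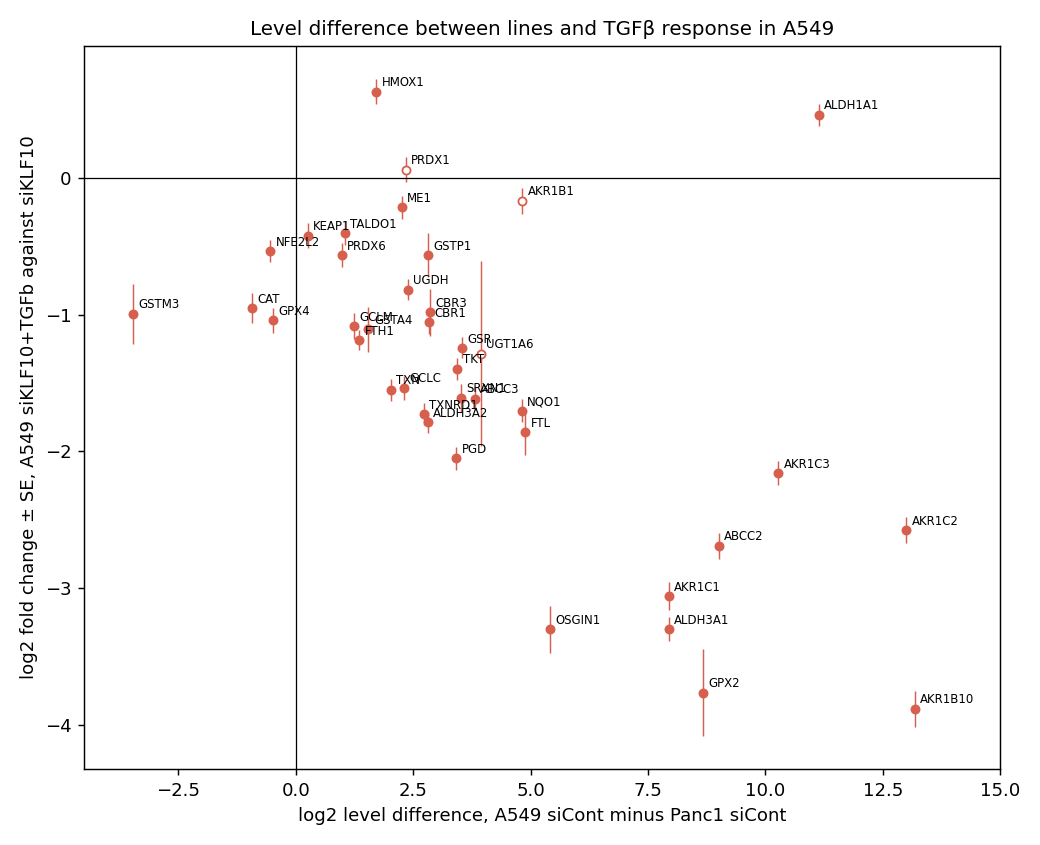
Log2 level difference between A549 and Panc1 siCont libraries (x) against the log2 fold change with TGFβ after siKLF10 in A549 (y, ± SE), 1 point per member, filled where the response passed the test. Points run from the upper left to the lower right, with ALDH1A1 at the upper right.

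The siRNA against KLF10 changed members in both directions in Panc1. Without TGFβ 14 of 36 fell (background 18.3% of 13218 genes) and 5 rose (background 17.3%). With plain library sizes 9 fell and 6 rose, and the share of all calls that were higher went from 48.6 to 64.4%. Leaving out siKLF10 C left 7 falls and leaving out siCont A left 9, in fits whose share of calls over all genes was not counted. The falls with the smallest p were those of PRDX6, from 159.6, 157 and 143 to 98.9, 105 and 101 CPM (log2 −0.56 ± 0.059, adjusted p = 1.72e-07), and of CAT, from 126, 135 and 130.2 to 90.01, 87.2 and 92.04 CPM (log2 −0.51 ± 0.0627, adjusted p = 1.51e-06). They were followed by PGD (−0.42 ± 0.066) and GSTP1 (−0.45 ± 0.0753). ABCC3 rose from 46.7, 55.7 and 68.7 to 82.8, 92.4 and 96.002 CPM (log2 0.69 ± 0.0938, adjusted p = 7.91e-06), and AKR1B1, FTL and CBR1 rose by 0.36, 0.34 and 0.30. NQO1 fell by 0.26 in log2, and TXNRD1, HMOX1, GCLM, KEAP1 and NFE2L2 did not pass the test (0.11, 0.14, 0.08, 0.06 and −0.13).

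The 3 largest called log2 falls in this comparison belonged to genes with few reads. ALDH3A1 measured 0.334, 0.303 and 0.457 CPM in siKLF10 (log2 −3.11 ± 0.596, adjusted p = 0.00086, or −2.18 without siCont A). GPX2 had counts of 54, 19 and 6 in siCont and 6, 2 and 0 in siKLF10, which overlap (log2 −3.14 ± 0.933, adjusted p = 0.0212). Its value was −2.07 without siCont A and −4.51 without siKLF10 A, and its call was lost without siKLF10 B or C and with no filter on low counts (adjusted p = 0.054 to 0.0832). Basal marker sums were 147 to 242 CPM in siCont and 79.4 to 86.0 CPM in siKLF10, and their part in these 2 values was not tested. OSGIN1 fell from 2.09, 1.99 and 1.89 to 1.001, 1.44 and 0.914 CPM (log2 −0.80 ± 0.279, adjusted p = 0.0299), a call lost without siCont A, B or C, or siKLF10 A or C and with DESeq2 and with no filter on low counts (adjusted p = 0.0506 to 0.131).

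Under TGFβ, siKLF10 lowered 11 of 36 members in Panc1 (background 20.6%) and raised 8 (background 21.1%). The 12 basal markers summed to 107 to 112 CPM in TGFb and 72.0 to 81.6 CPM in siKLF10+TGFb, and their part in these counts was not tested. NQO1, OSGIN1, GPX4, GSTP1, PRDX6, CAT, PGD and ALDH3A2 fell in both TGFβ settings, and CBR1, ABCC3 and FTL rose in both. Of these calls, that of ALDH3A2 in cells without TGFβ was lost without siCont A or C, or siKLF10 A or C and with plain library sizes (adjusted p = 0.0501 to 0.177). Under TGFβ, CBR1 was lost without TGFb B or siKLF10+TGFb C (adjusted p = 0.056 to 0.0923) and FTL without TGFb C or siKLF10+TGFb A (adjusted p = 0.0845 to 0.114). CAT fell from 102, 108 and 109 CPM in TGFb to 64.6, 57.7 and 63.9 CPM in siKLF10+TGFb (log2 −0.76 ± 0.0644, adjusted p = 5.42e-09). GPX4 fell from 178, 173 and 194 to 124, 96.6 and 99.2 CPM (log2 −0.76 ± 0.089, adjusted p = 1.59e-06). The falls were 1.70-fold and 1.69-fold, with no overlap between groups. OSGIN1 fell from 0.886, 0.877 and 0.757 to 0.465, 0.162 and 0.346 CPM (log2 −1.29 ± 0.426, adjusted p = 0.0179), lost without siKLF10+TGFb B and with DESeq2 (adjusted p = 0.051 to 0.0891). CBR3 fell from 1.11, 0.877 and 0.895 to 0.399, 0.647 and 0.259 CPM (log2 −1.11 ± 0.394, adjusted p = 0.0275), lost without TGFb A, or siKLF10+TGFb A or C and with DESeq2 (adjusted p = 0.069 to 0.111). GCLC rose by 0.57 ± 0.0682, HMOX1 by 0.35 ± 0.0834, GCLM by 0.33 ± 0.0877 and UGDH by 0.30 ± 0.0584. UGDH had fallen without TGFβ (−0.20 ± 0.059), a call lost without siCont B or siKLF10 C and with plain library sizes (adjusted p = 0.0541 to 0.0941).

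**Figure D5:**
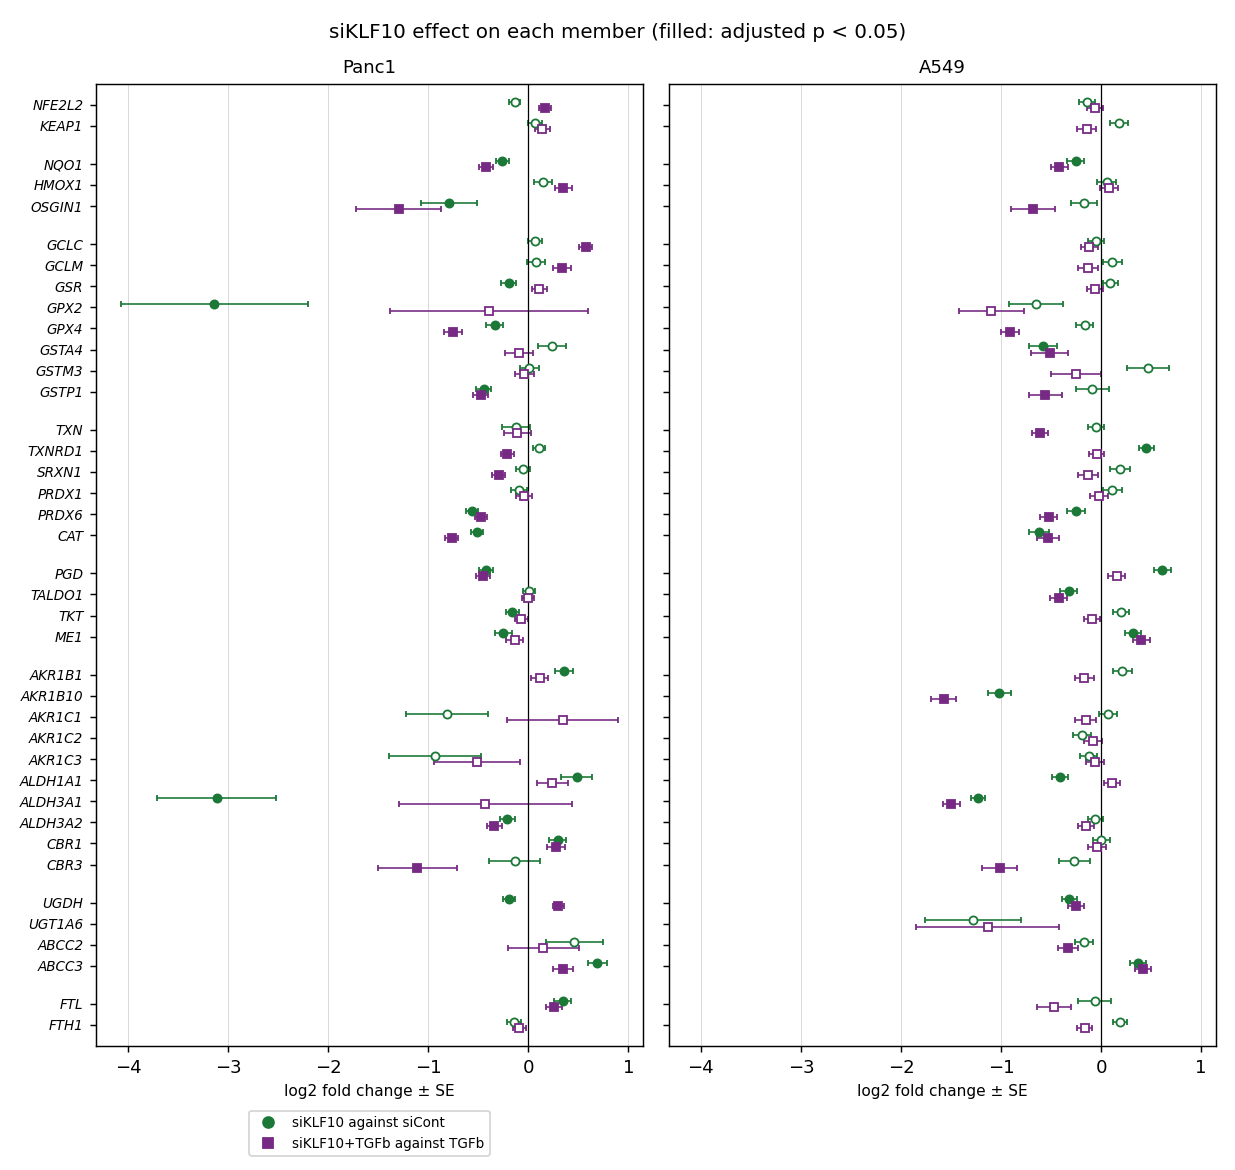
Log2 difference (± SE) for each member in Panc1 (left) and A549 (right), on a shared axis. Circles are siKLF10 against siCont and squares are siKLF10+TGFb against TGFb. Filled symbols passed the test, and the wide bars of GPX2 and ALDH3A1 in Panc1 belong to genes with few reads.

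In A549 the libraries labelled siKLF10, in which KLF10 itself did not pass the test, had 9 of 39 members lower than siCont (background 9.96% of 14124 genes) and 4 higher (background 9.57%). Fewer were lower without siKLF10 B, and a fit of these 2 groups alone gave 14 lower and 8 higher. How many of all genes were called in these fits was not counted. ALDH3A1 measured 798 and 747 CPM in siCont and 336 and 314 CPM in siKLF10 (log2 −1.23 ± 0.074, adjusted p = 3.94e-10). AKR1B10 went from 4569.9 and 4253 to 2282 and 2027 CPM (log2 −1.02 ± 0.116, adjusted p = 5.54e-05). CAT fell from 62.9 and 68.5 to 45.2 and 38.5 CPM (log2 −0.62 ± 0.1, adjusted p = 0.000133). GSTA4 fell from 16.7 and 17.1 to 11.5 and 10.6 CPM (log2 −0.58 ± 0.141, adjusted p = 0.00549, lost without siCont B or siKLF10 B and with DESeq2 (adjusted p = 0.0513 to 0.0787)). PGD rose from 1439 and 1292 to 2137 and 1989.9 CPM (log2 0.61 ± 0.0817, adjusted p = 1.56e-05). TXNRD1 rose from 2809.8 and 2560.4 to 3775 and 3485 CPM (log2 0.45 ± 0.0788, adjusted p = 0.000301), and ABCC3 and ME1 by 0.37 and 0.32. The ABCC3 call was lost without siKLF10 B (adjusted p = 0.078) and the ME1 call without siCont B or siKLF10 A (adjusted p = 0.156 to 0.197). NQO1 measured 2868 and 2897 CPM in siCont and 2499 and 2271 CPM in siKLF10 (log2 −0.25 ± 0.0822, adjusted p = 0.0326), a call lost without siCont A or B, TGFb A or B, or siKLF10 A or B (adjusted p = 0.0536 to 0.297). The 7 A549 transcripts also differed between these groups, with sums of 2731 to 2890 CPM in siCont and 1662 to 1694 CPM in siKLF10, as did the 12 basal markers (141 to 145 and 178 to 183 CPM), and their part in these values was not tested.

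Under TGFβ, 14 of 39 members were lower in the A549 libraries labelled siKLF10+TGFb than in TGFb (background 13.9%) and 2 were higher (background 14.4%). The 7 A549 transcripts summed to 823 to 828 CPM in TGFb and 637 to 734 CPM in siKLF10+TGFb, and the 12 basal markers to 173 to 189 and 261 to 268 CPM, and their part in these counts was not tested. AKR1B10 went from 485 and 402 to 169 and 132 CPM (log2 −1.57 ± 0.122, adjusted p = 9.96e-07). ALDH3A1 fell from 93.5 and 97.4 to 33.6 and 34.3 CPM (log2 −1.50 ± 0.0854, adjusted p = 6.17e-11). GPX4 fell from 164 and 176 to 99.3 and 83.05 CPM (log2 −0.91 ± 0.0904, adjusted p = 1.79e-07). CBR3 fell from 11.8 and 11.7 to 6.79 and 5.23 CPM (log2 −1.01 ± 0.176, adjusted p = 0.000181). TXN fell from 209.9 and 235 to 155 and 139 CPM (log2 −0.61 ± 0.0827, adjusted p = 1.03e-05). OSGIN1 fell by 0.68, a call lost without TGFb B, siKLF10 A or B, or siKLF10+TGFb B and in a fit of the 2 groups alone (adjusted p = 0.0583 to 0.303), and its value was −0.28 without siKLF10+TGFb B and −0.45 without TGFb B. NQO1, GSTA4, PRDX6, CAT, TALDO1, AKR1B10, ALDH3A1 and UGDH were lower in both TGFβ settings, and ABCC3 and ME1 were higher in both. Beside the losses given above, the PRDX6 call in cells without TGFβ was lost without siCont A or B, TGFb A or B, or siKLF10 A or B and with DESeq2 (adjusted p = 0.0743 to 0.354), TALDO1 without siCont A or B, or siKLF10 B (adjusted p = 0.0693 to 0.148) and UGDH without siCont A or siKLF10 B (adjusted p = 0.132 to 0.134). With TGFβ GSTA4 was lost without siCont A or B, TGFb A or B, or siKLF10+TGFb A or B and with DESeq2, with no filter on low counts and in a fit of the 2 groups alone (adjusted p = 0.0505 to 0.254) and UGDH without TGFb A or B, or siKLF10+TGFb A (adjusted p = 0.054 to 0.154). TXNRD1, raised without TGFβ, did not pass the test with it (−0.04 ± 0.0792).

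Few members passed the test for a TGFβ response that differed between siKLF10 and no siKLF10, in either line. The interaction (the response to TGFβ with siKLF10 less the response without it) was called higher for 3 of 36 members in Panc1 (background 2.56%) and lower for 1 (background 1.86%). With plain library sizes the share of all Panc1 calls that were higher went from 57.9 to 31.5%. UGDH measured 133, 132 and 123 CPM in siCont, 127, 126 and 126 in TGFb, 107, 115 and 109 in siKLF10 and 148, 158 and 157 in siKLF10+TGFb (interaction log2 0.50 ± 0.083, adjusted p = 0.000916). GCLC measured 56.1, 57.1 and 55.4 CPM in siCont, 56.6, 58.2 and 64.8 in TGFb, 53.1, 60.2 and 59.2 in siKLF10 and 84.97, 88.2 and 91.6 in siKLF10+TGFb (log2 0.51 ± 0.0977, adjusted p = 0.00311). Both were thus highest in siKLF10+TGFb, where no library overlapped those of the other 3 groups. The NFE2L2 interaction (0.30 ± 0.079) was lost without siCont A or B, TGFb A, B or C, siKLF10 A or C, or siKLF10+TGFb B or C and with plain library sizes (adjusted p = 0.0632 to 0.13), and that of TXNRD1 (−0.32 ± 0.0873) without siCont A or B, TGFb A or B, siKLF10 B or C, or siKLF10+TGFb B and with RLE scaling (adjusted p = 0.0518 to 0.124).

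In A549 the interaction was called higher for 1 of 39 members (background 3.26%) and lower for 5 (background 3.23%). The share called lower stood above its background. The median interaction over the members was −0.23 in log2, beside −0.0056 over all genes tested. In Panc1 these medians were −0.015 and −0.0065. GPX4 measured 213 and 201 CPM in siCont, 164 and 176 in TGFb, 189 and 175 in siKLF10 and 99.3 and 83.05 in siKLF10+TGFb (log2 −0.74 ± 0.125, adjusted p = 0.000878), so the last group stood below the rest. TXN (log2 −0.55 ± 0.115, adjusted p = 0.00459), TXNRD1 (log2 −0.50 ± 0.112, adjusted p = 0.00868), PGD (log2 −0.46 ± 0.116, adjusted p = 0.02) and FTH1 (log2 −0.35 ± 0.103, adjusted p = 0.0412) had larger falls after siKLF10 and ALDH1A1 rose there (log2 0.51 ± 0.113, adjusted p = 0.00746). Each of these 5 calls was lost in some setting: TXN without TGFb B (adjusted p = 0.0655), TXNRD1 without siCont B, TGFb A or B, or siKLF10 A (adjusted p = 0.0567 to 0.101), PGD without siCont B, TGFb A or siKLF10 A (adjusted p = 0.128 to 0.175), FTH1 without siCont A or B, TGFb A or B, or siKLF10 A or B and with no filter on low counts (adjusted p = 0.0568 to 0.215) and ALDH1A1 without siCont B, TGFb B or siKLF10 B (adjusted p = 0.0508 to 0.0857). The count of lower interactions rose without siKLF10+TGFb A and dropped without siCont B, TGFb A or siKLF10 A. How many of all genes were called in those fits was not counted.

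The siKLF10 effect itself was compared between lines. Without TGFβ it was higher in A549 than in Panc1 for 5 of 39 members (background 8.65% of 15058 genes) and lower for 3 (background 8.59%), or 3 and 5 with plain library sizes, where the share of all calls that were higher went from 50.2 to 39.1%. PGD was called in opposite directions (−0.42 in Panc1 and 0.61 in A549, difference log2 1.01 ± 0.107, adjusted p = 4.54e-08), as were ME1 (log2 0.54 ± 0.126, adjusted p = 0.0026) and ALDH1A1 (log2 −0.92 ± 0.162, adjusted p = 0.000124). In Panc1 the ME1 call was lost without siCont A or B, or siKLF10 A or C and with plain library sizes (adjusted p = 0.0612 to 0.115) and the ALDH1A1 call without siCont B or C, or siKLF10 B or C (adjusted p = 0.0504 to 0.122). Under TGFβ the effect was higher in A549 for 2 members (background 12.3%) and lower for 5 (background 7.52%), and plain library sizes moved the share of all calls that were higher from 62 to 50.1%. PGD (log2 0.64 ± 0.109, adjusted p = 5.09e-05) and ME1 (log2 0.58 ± 0.125, adjusted p = 0.00102) were the 2 that were higher, and GCLC (log2 −0.65 ± 0.117, adjusted p = 0.000118) and UGDH (log2 −0.52 ± 0.104, adjusted p = 0.000437) had the smallest adjusted p among the 5 that were lower. KLF10 was lowered less in A549 than in Panc1 in both settings (0.68 ± 0.0996 and 0.69 ± 0.0971).

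A further 58 genes of the NRF2 pathway and of drug metabolism, which are not members, were read in the same fits. In A549 with TGFβ 32 of 53 tested fell (background 23.5%) and 8 rose (background 24.2%), with a median of −0.54. In Panc1 17 of 50 fell (background 15.1%) and 5 rose (background 14%), with a median of −0.15. The largest called changes in A549 were falls of UGT1A1 (−3.98 ± 0.645), CES1 (−2.78 ± 1.11), AKR1B15 (−2.72 ± 0.131) and GLRX (−2.53 ± 0.103), which encode a bilirubin glucuronosyltransferase, a carboxylesterase, a relative of AKR1B10 that shares its sequence in part, and glutaredoxin. In Panc1 they were falls of the exporter ABCG2 (−2.07 ± 0.0886), the peroxiredoxin PRDX2 (−1.66 ± 0.167), GLRX (−1.01 ± 0.163) and the exporter ABCC1 (−0.90 ± 0.06). In A549 after siKLF10, 38 of 53 fell with TGFβ (background 26.8%) and 5 rose (background 26.5%), led by CYP4F11, a fatty acid hydroxylase (−3.54 ± 0.11). In siCont 39 of 56 were higher in A549 than in Panc1 (background 42.9%) and 10 lower (background 39%), with a median of 0.88, a smaller gap than the 2.84 of the members.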

How the data were processed

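RNA-seq libraries of Panc1 (12) and A549 (8) were analysed from 20 deposited tables of whole-number read counts per gene. The authors' processing named TopHat, Bowtie2, HTSeq 0.6.0, DESeq2 and the build hg19, per the submitters' processing notes. The libraries were poly(A) selected with a directional kit, per the labels' protocols, and the strand setting of the counting was not stated there. The authors' deposited tables of comparisons were not used. Rows for reads with no feature (33.6 to 36.9% in Panc1, 57.6 to 60.1% in A549) or an ambiguous one (0.336 to 0.532%) stayed out of library sizes and tests.

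Each line was fitted alone and both together with edgeR 4.0.16 in R 4.3.3 (quasi-likelihood test, robust, limma 3.58.1), after a filter at 10 counts (15 in total) and TMM scaling, with Benjamini-Hochberg adjustment over all genes tested and calls at an adjusted p under 0.05. The fit of all groups of a line shares 1 estimate of the spread. Log2 fold changes carry an SE derived from the F statistic. CPM values are counts scaled to a common library size, with TMM factors over all 20 libraries, and values per kilobase use exon lengths of GENCODE v29 (GRCh38, another build than that of the counts). Promoter windows are those of RefSeq on GRCh38.p14, found for 30 of 39 members by symbol.

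Members and gene lists were chosen with earlier results of these data known. Every member could be named, with full values for those called at 1.5-fold or more, plus at most 4 other pathway genes a comparison. The alternatives were RLE scaling, DESeq2 1.42.0, no filter, a block on the replicate letter, a fit of the 2 groups alone and each library left out, and, added after seeing the data, plain library sizes. The default edgeR fits and DESeq2 were tried on simulated data, for TGFb against siCont in each line and for the siCont level between lines. The other comparisons and settings were not tried, and the planted changes lay in genes with many counts. No replicate pair was alike within sampling noise (chi-square per degree of freedom of 2.06 or more). In A549 this statistic was 11.4 between siKLF10+TGFb A and B, against 2.57 in siCont, 2.22 in TGFb and 2.97 in siKLF10. Those siKLF10+TGFb libraries held FTL at 1670 and 1121 CPM, GSTP1 at 659 and 448 CPM and CAT at 22.5 and 22.2 CPM. Panc1 siKLF10+TGFb A stood at 9.11 from B and 12.5 from C. Panc1 siKLF10 A and B (10.5) and siCont A and C (9.42) also lay far apart. Comparisons with siKLF10+TGFb, and the interactions, rest on libraries this far apart. The floors cover counting error only. The SE of a log2 value reflects counting error and library-to-library spread. For shares of gene counts and for CPM per kb, the ± is the SD between libraries.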

Additional observations from a re-analysis of the deposited data

Results flagged for a closer look

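Each value here is a log2 difference between 2 effects that was itself tested and passed at an adjusted p under 0.05 (edgeR's quasi-likelihood test, all genes). In Panc1 the TGFβ response with siKLF10 exceeded that without siKLF10 for GCLC (0.51), UGDH (0.50) and NFE2L2 (0.30) and was below it for TXNRD1 (−0.32). In A549 the same difference was −0.74 for GPX4, −0.55 for TXN, −0.50 for TXNRD1, −0.46 for PGD, −0.35 for FTH1 and 0.51 for ALDH1A1. TXNRD1 was called in both lines, with a larger fall after siKLF10 in each. Both of these calls were lost in some settings, as given above. So were those of NFE2L2 in Panc1 and of TXN, PGD, FTH1 and ALDH1A1 in A549.

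The TGFβ response of A549 minus that of Panc1 was tested for all members. Among genes of glutathione use it was −1.65 for GCLC, −0.97 for GCLM, −1.05 for GSR, −1.37 for GSTA4 and 0.35 for GPX4. Among thioredoxin and peroxide genes it was −1.78 for SRXN1, −1.06 for TXN, −0.78 for TXNRD1, −0.84 for CAT and −0.43 for PRDX6. Pentose phosphate enzymes and malic enzyme gave −1.30 for PGD, −1.19 for TKT, −0.61 for ME1 and −0.39 for TALDO1. The TALDO1 call was lost with no filter on low counts (adjusted p = 0.0624). Carbonyl and aldehyde enzymes gave −3.48 for AKR1B10, −2.29 for AKR1C3, −1.92 for AKR1C2 (lost without Panc1 siCont A or B, Panc1 TGFb A or B, A549 siCont A or B, or A549 TGFb B and with no filter on low counts (adjusted p = 0.0535 to 0.761)), −1.37 for ALDH3A2 and −0.86 for CBR1. The remaining values were −2.02 for ABCC2, −1.16 for ABCC3, −0.94 for UGDH, −1.56 for FTL, −0.50 for FTH1, −1.17 for NQO1, −1.64 for OSGIN1, −0.42 for HMOX1 and −0.71 for NFE2L2. The calls of HMOX1 and GPX4 were lost in the settings given above.

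For the siKLF10 effect without TGFβ, A549 minus Panc1 was 1.01 for PGD, 0.54 for ME1, 0.34 for TKT, 0.32 for TXNRD1, 0.31 for FTH1, −0.35 for TALDO1, −0.84 for GSTA4 and −0.92 for ALDH1A1. Of these, TKT was lost without Panc1 siCont C, A549 siCont B or A549 siKLF10 A (adjusted p = 0.0515 to 0.112), TXNRD1 without Panc1 siCont B or C, Panc1 siKLF10 A or C, A549 siCont B, or A549 siKLF10 A and with plain library sizes (adjusted p = 0.0509 to 0.189), FTH1 without Panc1 siCont A or B, Panc1 siKLF10 B or C, A549 siCont A or B, or A549 siKLF10 A and with plain library sizes (adjusted p = 0.0582 to 0.21) and TALDO1 without A549 siCont A or A549 siKLF10 B and with no filter on low counts (adjusted p = 0.0515 to 0.122). Under TGFβ the difference was 0.64 for PGD, 0.58 for ME1, −0.69 for FTL, −0.65 for GCLC, −0.52 for UGDH, −0.43 for GCLM (lost without Panc1 TGFb C, Panc1 siKLF10+TGFb C, A549 TGFb B or A549 siKLF10+TGFb B (adjusted p = 0.0624 to 0.155)) and −0.39 for TALDO1 (lost without A549 TGFb B or A549 siKLF10+TGFb B (adjusted p = 0.0512 to 0.0814)). In the A549 libraries of both comparisons KLF10 itself was little lowered.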

How the results depend on the processing

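Of 266 called gene results, 206 kept their call and direction in every setting tried and 60 lost the call in at least one, 29 of them only on leaving out a library. Reversed signs belonged to uncalled Panc1 TGFβ responses: NFE2L2 was −0.019 with plain library sizes and −0.0056 (without TGFb A) to 0.019 with 1 library left out, and GCLM −0.0058 (without siCont B) to 0.12. Counts of members moved by over 1.5 times as follows, and the cause was not tested. For the refits in this section, the share of all genes called was not counted. With plain library sizes, 9 members in place of 14 fell with siKLF10 in Panc1, 3 in place of 1 had a lower Panc1 interaction, and the siKLF10 difference between lines was higher for 3 and lower for 5. With RLE scaling the lower Panc1 interactions went from 1 to 0 (5 members at an unadjusted p under 0.05 by edgeR, 2 called by DESeq2), and they were 2 with DESeq2, 2 with no filter and 2 with the replicate block. With no filter, 2 members rose with TGFβ in A549, 9 had a lower A549 interaction and 9 a higher siKLF10 difference. In fits of the 2 groups alone, 3 members rose with TGFβ in A549, and 8 rose and 14 fell with siKLF10 in A549. The letters A to C were not taken to pair the libraries (same-letter r of −0.264 to 0.452 over 18 Panc1 pairs, 2 above 0.1, and −0.059 to 0.188 over 12 A549 pairs, 6 above 0.1). With 2 libraries a group in A549, the A value and the B value of any 2 groups are equal. These 12 A549 values are therefore not separate, and they do not decide whether a letter marks a shared batch. The replicate block gave 3 rises with TGFβ in A549 (HMOX1, AKR1B1 at an adjusted p = 0.0151 and PRDX1 at 0.0293) and siKLF10 differences of 8 higher and 5 lower, and in Panc1 GSR (0.057) and TKT (0.0514) with siKLF10 and PRDX6 (0.0537) with TGFβ after siKLF10 did not pass under it. Leaving out 1 library at a time gave, in Panc1, 2 to 4 rises and 12 to 15 falls with TGFβ, 6 to 8 and 11 to 14 after siKLF10, 4 to 5 and 7 to 15 with siKLF10, 6 to 8 and 9 to 11 under TGFβ, and interactions of 2 to 3 higher and 0 to 2 lower. In A549 it gave 1 to 3 rises and 27 to 31 falls with TGFβ, 2 to 3 and 32 to 35 after siKLF10, 3 to 8 and 4 to 13 with siKLF10, 2 to 4 and 10 to 20 under TGFβ, and interactions of 0 to 1 higher and 2 to 20 lower. Between lines it gave TGFβ differences of 0 to 1 higher and 25 to 29 lower, siKLF10 differences of 2 to 7 and 2 to 4, and 2 to 3 and 3 to 6 under TGFβ, while the levels stayed at 35 and 4. At 0 calls left, 5 to 6 members had an unadjusted p under 0.05 for the lower Panc1 interaction, 1 for the higher A549 interaction and 1 to 2 for the higher TGFβ difference. Depth limits AKR1B10, AKR1C1, AKR1C2, AKR1C3, ALDH3A1, ABCC2, CBR3, GPX2, OSGIN1 and UGT1A6 in Panc1, each with under 10 counts in at least 1 library.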
